A study of Mus musculus with 12 samples.

Results

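The serpins are serine protease inhibitors and their relatives, and the mouse liver is a main source of the serpins of plasma. The 62 genes described here were all genes of the deposited tables whose name begins with Serpin and whose type is protein-coding (61 genes), plus Serpina4-ps1, a pseudogene that gave counts in liver, out of 54532 genes in all. They comprised 25 genes of clade a, 26 of clade b and 11 of clades c to i. Another 6 genes with a Serpin name and a pseudogene type were left out; they held at most 69 counts each over all 12 libraries.

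An inhibitory serpin presents a flexible stretch near its carboxy terminus, the reactive centre loop, as bait. When a protease cuts this loop, the serpin refolds and traps the enzyme, and the residue just before the cut, called P1, largely decides which protease is caught. Clade a holds secreted inhibitors such as the alpha-1-antitrypsins (Serpina1) and antichymotrypsins (Serpina3) together with hormone carriers. Clade b holds mostly intracellular inhibitors of leukocyte proteases, and clades c to i hold the inhibitors of clotting, fibrinolysis and complement as well as members that inhibit no protease.

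RNA was sequenced from livers of male PPARγ flox/flox mice that had been injected at 8 weeks of age with an AAV8 vector. The vector expressed Cre (labelled KO) or eGFP (labelled WT, littermates), and the thyroxine-binding globulin (TBG) promoter, active in hepatocytes, drove both. All mice then received a fast-food diet (FFD) with 21% fat by weight, 0.2% cholesterol and 34% sucrose by weight, with 18.9 g/L glucose and 23.1 g/L fructose in the drinking water, for 2 or 5 months. Each genotype had 3 libraries at each time, no liver without the diet or without a vector was included, and deletion was limited to cells in which the promoter was active. TBG itself is the product of Serpina7, so all 12 livers carried a vector with a promoter named for 1 of the genes described below.

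The members most exposed to shared reads were the Serpina1 and Serpina3 paralogs of chromosome 12. Their coding sequences for the reactive centre loop are shown because the loop sets which protease is bound. The stretches below run 5′ to 3′ on the coding strand, from the hinge of the loop to its end, and were taken from GENCODE M21 transcripts on the mm10 assembly. Each lies within 1 coding exon. For Serpina1, on the minus strand, capitals mark the 18 of 81 positions at which the 5 expressed paralogs are not all alike. The loci are chr12:103853750-103853830 (Serpina1a), chr12:103728317-103728397 (Serpina1b), chr12:103895087-103895167 (Serpina1c), chr12:103763755-103763835 (Serpina1d) and chr12:103947093-103947173 (Serpina1e).
Serpina1a: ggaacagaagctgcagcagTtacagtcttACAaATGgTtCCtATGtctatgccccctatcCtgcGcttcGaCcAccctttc
Serpina1b: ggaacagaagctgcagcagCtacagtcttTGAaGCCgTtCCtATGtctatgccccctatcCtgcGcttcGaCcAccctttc
Serpina1c: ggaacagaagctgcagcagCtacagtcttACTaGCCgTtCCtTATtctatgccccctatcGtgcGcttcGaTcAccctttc
Serpina1d: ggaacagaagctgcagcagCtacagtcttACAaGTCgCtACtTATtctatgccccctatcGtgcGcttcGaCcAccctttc
Serpina1e: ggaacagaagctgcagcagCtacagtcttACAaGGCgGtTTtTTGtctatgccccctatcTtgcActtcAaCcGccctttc

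Counted from the first codon shown, codon 15 lines up with P1. It reads ATG in Serpina1a and Serpina1b, TAT in Serpina1c and Serpina1d and TTG in Serpina1e. Any pair of these stretches differed at 5 to 12 bases, fewest between Serpina1c and Serpina1d and most between Serpina1e and either Serpina1a or Serpina1c. Of all windows of 100 bases in the Serpina1c transcripts, 58.5% occurred exactly in a transcript of another gene, mostly Serpina1a, against 42.8% for Serpina1a, 29.3% for Serpina1d, 14.8% for Serpina1b and 14.4% for Serpina1e. How reads that match several genes were counted is not stated, so the split of signal among the Serpina1 genes is uncertain.

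For the expressed Serpina3 paralogs, on the plus strand, the loops differ in length and capitals mark codons 15 and 16. The loci are chr12:104220245-104220337 (Serpina3f), chr12:104241072-104241161 (Serpina3g), chr12:104345269-104345352 (Serpina3k), chr12:104393769-104393858 (Serpina3m) and chr12:104413448-104413537 (Serpina3n).
Serpina3f: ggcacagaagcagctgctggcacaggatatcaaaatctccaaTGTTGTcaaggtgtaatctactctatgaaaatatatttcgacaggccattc
Serpina3g: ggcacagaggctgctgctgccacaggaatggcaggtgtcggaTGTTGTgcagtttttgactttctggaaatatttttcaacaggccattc
Serpina3k: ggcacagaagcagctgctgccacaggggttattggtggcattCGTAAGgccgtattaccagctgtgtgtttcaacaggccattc
Serpina3m: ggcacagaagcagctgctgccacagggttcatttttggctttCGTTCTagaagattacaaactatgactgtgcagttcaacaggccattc
Serpina3n: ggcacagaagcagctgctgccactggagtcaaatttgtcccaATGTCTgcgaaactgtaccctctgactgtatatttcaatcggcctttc

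Codon 15 reads TGT in Serpina3f and Serpina3g, CGT in Serpina3k and Serpina3m and ATG in Serpina3n. These genes shared fewer exact windows with other genes, from 0.20% for Serpina3n to 6.09% for Serpina3m, which overlaps Serpina3k by 60 exonic bases on the same strand. Serpina3m and Serpina3k have the same annotated start.

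Of the 62 members, 39 had at least 10 counts over the 12 libraries and 15 had none. Detection followed the clades, with 22 of 25 members of clade a, 8 of 26 of clade b and 9 of 11 of clades c to i at or above 10 counts. Serpin counts made up 1.20% to 1.95% of each library. Levels below are normalized CPM, counts scaled to a common library size, and they were compared between genes only after division by gene length, as CPM per kilobase (RPKM). On that scale the mean over 12 libraries was highest for Serpina3k, a kallikrein-binding serpin, at 1934, followed by Serpina1b at 1633 and Serpina1d at 1003. In clades c to i, Serping1, the inhibitor of the complement protease C1, led with 275 RPKM, then Serpinf2 (225 RPKM), the plasmin inhibitor alpha-2-antiplasmin, and Serpind1 (215 RPKM), the thrombin inhibitor heparin cofactor II. Serpinc1, antithrombin, had 1667 CPM but 195 RPKM, with an annotated length of 8546 bases that includes 2942 exonic bases shared with Zbtb37 on the other strand. Clade b stood far lower, led by Serpinb9 (5.32 RPKM), Serpinb6a (4.45 RPKM) and Serpinb1a (3.17 RPKM). All clade a members except Serpina7, on chromosome X, lay in 1 cluster on chromosome 12, from 103614786 to 104414329 (mm10).

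Libraries held 16367775 to 27452284 counts. The abundant plasma serpins therefore rested on far more counts per library than the members of clade b or Serpina4-ps1 at 5 months. Pparg was higher in KO than in WT libraries, at 37.6 to 41.4 CPM in WT and 50.4 to 66.5 CPM in KO at 2 months (log2 fold change 0.52 ± 0.11 (SE), adjusted p = 0.0309, edgeR). At 5 months it stood at 36.9 to 41.4 CPM in WT and 75.0 to 92.9 CPM in KO (1.15 ± 0.08, adjusted p = 2.57e-06). Counts were made per gene and include exons outside a floxed segment, so they do not check the deletion. KO and WT therefore name libraries by their labels throughout. The study itself reported, from Western blots, that PPARγ protein was efficiently lost in KO livers at both times. WT replicate 1 at 2 months stood apart from its group, with a chi-square per gene of 27.6 and 31.7 against replicates 3 and 2, which differed from each other by 10.3. The 2-month results that change their call without it are given both ways.

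At 2 months, 4 members were called higher in KO than in WT and 1 lower, of 30 that had enough counts for the test. A call is an adjusted p below 0.05 in edgeR's quasi-likelihood test, over all genes tested. The calls higher were Serpina1c, Serpina3m, Serpina12 and Serpina3n, and the call lower was Serpina7. Among all 14573 genes tested, 1.78% were called higher and 1.78% lower, and the members' shares were not tested against these. The median log2 fold change of the tested members was 0.26, against -0.0048 over all genes, and 21 of 30 were above 0. With the replicate number as a block, 8 members were called higher and 2 lower (2.96% and 2.65% of all genes). The labels do not state that libraries of the same number belong together. Serpina1a, Serpine2, Serpinf2 and Serping1 joined the higher and Serpina4-ps1 the lower. Without WT replicate 1, 13 were called higher and 2 lower, against 5.31% and 5.25% of all genes. These included the 5 calls named above, and Serpina1a, Serpina1b, Serpina1d, Serpina10, Serpind1, Serpine2, Serpinf1, Serpinf2 and Serping1 joined the higher and Serpinb6b the lower. Without WT replicate 3, KO replicate 1 or KO replicate 3, 1 member was called higher, and without KO replicate 2 it was 2, in fits that called 0.409% to 0.774% of all genes higher. Among members not called, leaving out WT replicate 1 moved Serpina3k to 0.93 (adjusted p = 0.172), Serpinb6a to -0.32 (adjusted p = 0.0873) and Serpinh1 to -0.42 (adjusted p = 0.0638).

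At 5 months, 6 members were called higher in KO than in WT and 10 lower, of 31 tested. Of all 14138 genes tested, 8.90% were called higher and 9.51% lower. Both member shares lay above these, and the differences were not tested. Higher were Serpinb1a, Serpina3m, Serpina12, Serpina1d, Serpinf1 and Serpind1. Among the lower were Serpina4-ps1, Serpina3g, Serpina3f, Serpina7, Serpinb6b, Serpinb6a, Serpina11, Serping1 and Serpinh1. The members' median was -0.14, against -0.0058 over all genes, with 13 of 31 above 0. Without WT replicate 2 the counts were 2 higher and 6 lower (5.31% and 5.74% of all genes), and without WT replicate 3 they were 3 and 6 (5.38% and 5.72%). Serpina4-ps1, counted among the 10, passed the filter on low counts at 5 months through its WT level alone. Serpina3m, Serpina12 and Serpina7 were called in the same direction at both times, in tests that share no library.

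**Figure D1:**
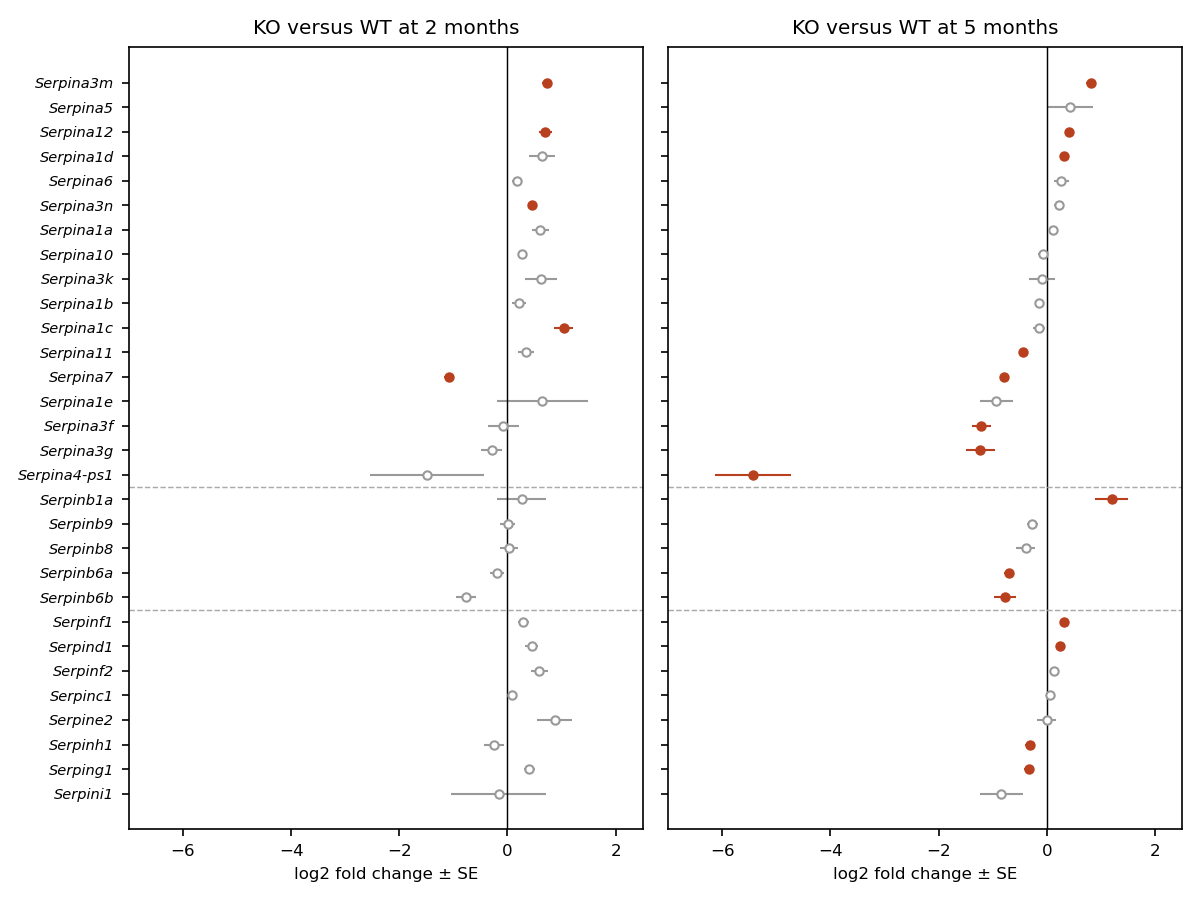
Log2 fold change of KO over WT at 2 months (left) and 5 months (right) for the serpins shown, with bars for the standard error of the fit. Filled red points passed an adjusted p of 0.05, open grey points did not, and dashed lines divide clade a (top), clade b and clades c to i. Serpina7 lies near -1 at both times and Serpina4-ps1 at -5.42 at 5 months.

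Among the alpha-1-antitrypsins, which inhibit neutrophil elastase and related proteases, Serpina1c rose in KO at 2 months. Its level was 508, 304 and 465 CPM in the WT libraries and 913, 826 and 890 CPM in the KO libraries. All KO libraries lay above all WT libraries. The fold change was 2.06 (log2 1.04 ± 0.18, adjusted p = 0.0223). Without WT replicate 3 or any 1 of the KO libraries the adjusted p was 0.0603 to 0.0863 and the log2 fold change 1.01 to 1.11. At 5 months Serpina1c stood at 417, 514 and 468 CPM in WT and 480, 357 and 418 CPM in KO. The groups overlapped, and the log2 difference of -0.15 ± 0.11 was not called (adjusted p = 0.418).

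Serpina1d stood at 1679, 865 and 1046 CPM in WT and 1799, 1775 and 2004 CPM in KO at 2 months, where it was not called (0.64 ± 0.24, adjusted p = 0.215). WT replicate 1 lay close to the KO libraries, and without it the log2 fold change was 0.96 (adjusted p = 1.6e-04). At 5 months its level was 1182, 1088 and 1122 CPM in WT and 1444, 1394 and 1379 CPM in KO. There the groups did not overlap and Serpina1d rose by 0.32 ± 0.07 on the log2 scale (adjusted p = 0.00646), though not without WT replicate 2 (adjusted p = 0.0542) or with all 12 libraries in the fit (adjusted p = 0.318).

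Serpina1a measured 1184, 750 and 896 CPM in WT and 1366, 1389 and 1560 CPM in KO at 2 months. The KO libraries were all higher, but the difference of 0.61 ± 0.16 was not called (adjusted p = 0.0697). It was called in 6 of 14 alternatives, among them the block (adjusted p = 0.0355) and the fit without WT replicate 1 (adjusted p = 4.01e-04). Levels at 5 months were 1234, 1145 and 1224 CPM in WT and 1386, 1207 and 1282 CPM in KO, which overlapped (0.12 ± 0.08, adjusted p = 0.347).

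Serpina1b, the most abundant of the family, measured 4203, 2924 and 3564 CPM in WT and 4062, 4049 and 4334 CPM in KO at 2 months, and 4420, 4002 and 4287 CPM against 4015, 3846 and 3621 CPM at 5 months. The groups overlapped at both times and neither difference was called (adjusted p = 0.412 and 0.291). Without WT replicate 1 the adjusted p at 2 months was 0.027. Serpina1e varied most among replicates, from 26.1 to 218 CPM in WT and 111 to 220 CPM in KO at 2 months, and was not called at either time.

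Summed over the Serpina1 genes, the difference between KO and WT was 0.44 ± 0.16 at 2 months (adjusted p = 0.163) and -0.02 ± 0.08 at 5 months (adjusted p = 0.902). The sum does not depend on how counted reads were split among the paralogs. It does depend on whether reads that match several of them were counted at all, which is not stated. On the scale of the sum no call was made at either time. The make-up of the sum differed between genotypes. Serpina1c took 6.25% to 7.66% of the Serpina1 signal in WT and 9.89% to 10.9% in KO at 2 months, and 5.68% to 7.48% and 5.20% to 6.49% at 5 months. The share of Serpina1b was lower in every KO library than in any WT library of the same time, at 48.2% to 49.7% against 53.9% to 60.1% at 2 months and 53.7% to 56.0% against 58.2% to 60.3% at 5 months. These shares were not tested.

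**Figure D2:**
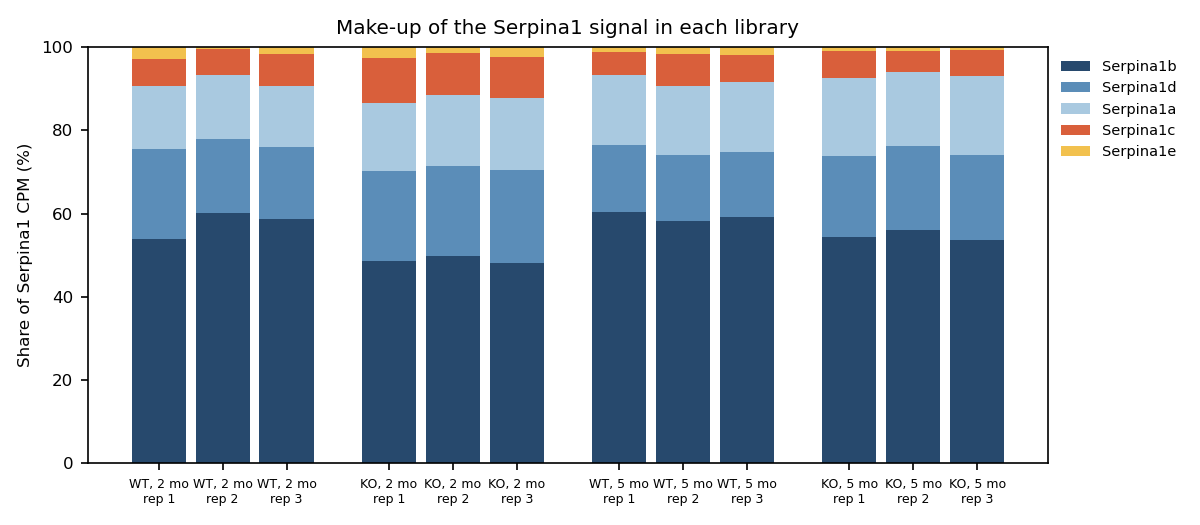
Share of the summed normalized CPM of the Serpina1 genes taken by each paralog, in percent, for each of the 12 libraries (mo, months; rep, replicate). The Serpina1b segment (dark blue) is smaller in KO than in WT libraries at each time, and the Serpina1c segment (orange) is widest in the 3 KO libraries at 2 months.

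Among the Serpina3 genes, Serpina3m rose at both times. It stood at 298, 268 and 247 CPM in WT and 435, 466 and 442 CPM in KO at 2 months. No KO library came near the WT range. The fold change was 1.65 (log2 0.72 ± 0.09, adjusted p = 0.00388). At 5 months the levels were 277, 324 and 319 CPM in WT and 485, 601 and 520 CPM in KO, again without overlap, a fold change of 1.76 (log2 0.81 ± 0.09, adjusted p = 7.49e-05). Both calls held in all 14 alternatives of the fit.

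Serpina3k, which overlaps Serpina3m, measured 4344, 1853 and 3220 CPM in WT and 5185, 4277 and 5019 CPM in KO at 2 months. Its levels at 5 months were 5194, 3597 and 3539 CPM in WT and 5020, 3252 and 3244 CPM in KO. Replicates ranged widely within each group and the groups overlapped at both times (adjusted p = 0.345 and 0.848). In KO at both times and in WT at 5 months, the library with the highest Serpina3k level had the lowest Serpina3m level. In WT at 2 months, the library with the highest Serpina3k level had the highest Serpina3m level.

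Serpina3n, the mouse antichymotrypsin best known from the acute phase response, stood at 278, 329 and 301 CPM in WT and 405, 413 and 429 CPM in KO at 2 months. All KO libraries were higher and Serpina3n rose by 0.46 ± 0.08 on the log2 scale (adjusted p = 0.0201). Without WT replicate 3 or any 1 of the KO libraries the adjusted p was 0.0646 to 0.0863, and with library size alone it was 0.054. Values at 5 months were 349, 430 and 423 CPM in WT and 457, 471 and 466 CPM in KO (0.22 ± 0.08, adjusted p = 0.0812).

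Serpina3f and Serpina3g, which share the TGT codon at P1 and are expressed in leukocytes, showed another pattern. At 5 months Serpina3f measured 6.57, 8.57 and 9.08 CPM in WT and 3.96, 3.13 and 3.28 CPM in KO. Serpina3g, an intracellular inhibitor of lysosomal cathepsins, measured 18.8, 33.1 and 31.8 CPM in WT and 14.4, 9.79 and 11.3 CPM in KO. In both genes every KO library lay below every WT library. Serpina3f fell by 1.21 on the log2 scale (SE 0.18, adjusted p = 4.73e-04), and Serpina3g fell by 1.23 (SE 0.26, adjusted p = 0.0264). The call of Serpina3g was lost without any 1 of WT replicates 2 and 3 and KO replicates 2 and 3 (adjusted p = 0.0702 to 0.102). It was also lost with the replicate block (adjusted p = 0.148). At 2 months Serpina3f stood at 4.15, 4.89 and 4.67 CPM in WT and 3.26, 3.02 and 6.51 CPM in KO (adjusted p = 0.92). Serpina3g stood there at 9.38, 13.9 and 11.3 CPM in WT and 7.81, 8.26 and 12.0 CPM in KO (adjusted p = 0.477). Both genes overlapped between the groups at that time.

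Markers of macrophages were read beside these genes. At 5 months 7 of the 9 macrophage markers fell, where 9.51% of all genes were called lower. The list's median was -0.93, and its summed level was 1150 to 1290 CPM in WT and 542 to 711 CPM in KO. At 2 months the sums overlapped, at 407 to 543 CPM in WT and 445 to 504 CPM in KO. There edgeR called Trem2 lower, where 1.78% of all genes were called lower. Of the 9 markers, 5 had an unadjusted p below 0.05 at 2 months and DESeq2 called 3. Over all 14573 genes tested, 2749 had such a p and DESeq2 called 6.78%. The part of these markers in the result was not tested, and in bulk liver fewer cells of a type cannot be told apart from less RNA per cell. Summed over the Serpina3 genes, of which Serpina3k supplied most of the signal, no call was made (adjusted p = 0.214 at 2 months and 0.973 at 5 months).

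**Figure D3:**
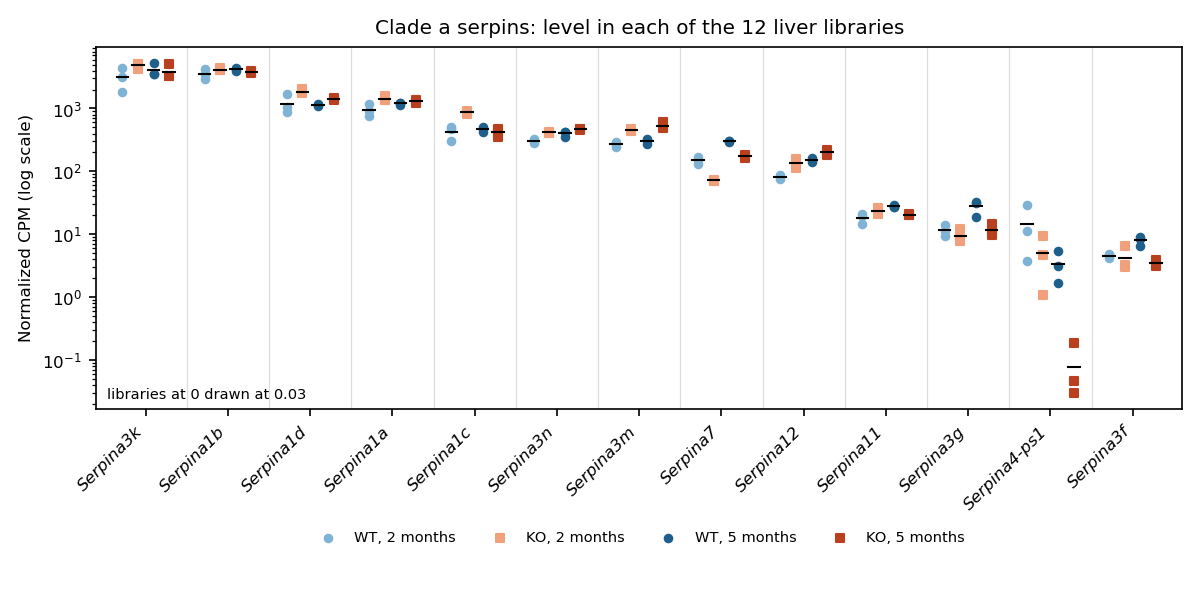
Normalized CPM (log scale) of 13 clade a serpins in each of the 12 libraries, ordered by mean level, with circles for WT, squares for KO and a bar for the group mean. Serpina7 lies lower and Serpina3m higher in KO than in WT at both times, and Serpina4-ps1 is near 0 in KO at 5 months.

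Serpina7, thyroxine-binding globulin, a carrier that inhibits no protease, fell at both times. It lies on chromosome X at 139079257 to 139085236. Its level was 153, 133 and 170 CPM in WT and 71.2, 69.7 and 74.1 CPM in KO at 2 months. The KO libraries were close together and far below the WT range. Serpina7 fell by 1.09 on the log2 scale (SE 0.09, adjusted p = 7e-04), a level 2.12-fold lower. Its values at 5 months were 308, 296 and 306 CPM in WT and 173, 182 and 166 CPM in KO, with no overlap. It fell by 0.80 (SE 0.06, adjusted p = 4.85e-06), 1.74-fold lower. The call held in all 14 alternatives at each time, with adjusted p up to 0.00585 at 2 months and 1.04e-04 at 5 months.

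Serpina12, vaspin, an inhibitor of kallikrein 7 first described in fat tissue, rose at both times. At 2 months it measured 82.8, 74.5 and 89.1 CPM in WT and 157, 113 and 131 CPM in KO. At 5 months it measured 166, 150 and 140 CPM in WT and 219, 206 and 181 CPM in KO. The groups did not overlap at either time. The log2 fold change was 0.70 ± 0.12 at 2 months (adjusted p = 0.0193) and 0.42 ± 0.08 at 5 months (adjusted p = 0.00308). At 2 months the adjusted p was 0.0507 to 0.0818 without WT replicate 2 or 3 or KO replicate 1 or 3. The call at 5 months held in all 14 alternatives.

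Serpina11, a secreted serpin of liver, fell at 5 months but not at 2 months. It stood at 29.4, 27.2 and 26.8 CPM in WT and 20.7, 20.2 and 20.6 CPM in KO at 5 months. Every KO library was below every WT library and Serpina11 fell by 0.43 on the log2 scale (SE 0.08, adjusted p = 0.00171). At 2 months it stood at 21.0, 14.6 and 19.4 CPM in WT and 26.3, 20.7 and 22.8 CPM in KO, where the groups overlapped (0.34 ± 0.14, adjusted p = 0.235). Of its 1638 exonic bases, 669 are shared with the non-coding gene Gm28577 on the same strand.

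Serpina4-ps1, the mouse pseudogene of the kallistatin gene, lies at 104080649 to 104086724 on the plus strand, beside Serpina12. Its level at 2 months was 11.4, 3.81 and 29.0 CPM in WT and 4.66, 1.08 and 9.53 CPM in KO. Replicates of a group differed severalfold, and at each replicate number the KO library was the lower. Without the block the difference was -1.48 ± 1.05 (adjusted p = 0.542), and with it -1.53 (adjusted p = 6.54e-04). At 5 months the values were 5.33, 1.69 and 3.08 CPM in WT and 0.047, 0 and 0.19 CPM in KO. The 3 KO libraries held 4 counts in all against 29 to 90 in each WT library. Serpina4-ps1 fell by 5.42 on the log2 scale (SE 0.70, adjusted p = 4.17e-04), a value that rests on those few counts and, for the filter, on WT alone. With all 12 libraries in the fit its adjusted p was 0.0867.

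The other hormone carrier and the protein Z-dependent inhibitor were not called at either time. Serpina6, corticosteroid-binding globulin, stood at 220 to 249 CPM in WT and 243 to 294 CPM in KO at 2 months, and at 123 to 170 CPM and 163 to 198 CPM at 5 months (adjusted p = 0.357 and 0.238). Serpina10, which inhibits factor Xa with protein Z, measured 105 to 106 CPM in WT and 120 to 134 CPM in KO at 2 months. The groups did not overlap there, with a difference below the threshold (0.27 ± 0.07, adjusted p = 0.0637), and overlapped at 5 months (adjusted p = 0.639). Serpina5, tested at 5 months alone, was not called. In chromosomal order, the neighbours Serpina3f and Serpina3g were both called lower at 5 months and Serpina3m and Serpina3n both higher at 2 months. By contrast, Serpina12 was higher in KO at 5 months while its nearest tested neighbours, Serpina11 and Serpina4-ps1, were lower. Serpina4-ps1 passed the filter there through WT alone.

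**Figure D4:**
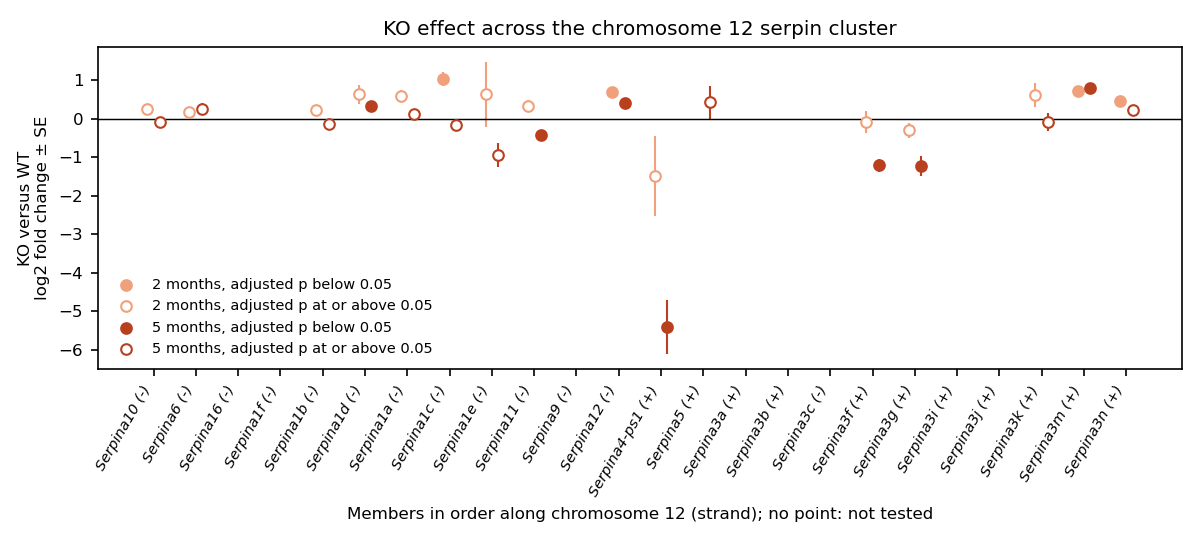
Log2 fold change of KO over WT (± SE) for the serpins of the chromosome 12 cluster, in genomic order with their strand, at 2 months (light) and 5 months (dark). Filled points passed an adjusted p of 0.05. Members without a point had too few counts for the test, and the lowest point is Serpina4-ps1 at 5 months.

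In clade b, 5 of 26 members had enough counts for the test. At 2 months edgeR called none of the 5, Serpinb6b alone had an unadjusted p below 0.05, and DESeq2 called 1 member lower. Over all 14573 genes tested, 2749 had such a p and DESeq2 called 3.38% lower. At 5 months 1 rose and 2 fell. Serpinb6a, an inhibitor of cathepsin G, lies on chromosome 13 at 33917918 to 34002794. At 5 months it measured 36.3, 40.2 and 42.2 CPM in WT and 23.0, 27.4 and 22.1 CPM in KO. The groups were well apart, and Serpinb6a fell by 0.70 on the log2 scale (SE 0.09, adjusted p = 2.21e-04) in all 14 alternatives. At 2 months it stood at 14.1, 19.9 and 18.3 CPM in WT and 14.1, 15.8 and 15.8 CPM in KO, which overlapped (-0.19 ± 0.13, adjusted p = 0.48). Exons of Nqo2 share 762 of its 5409 bases and exons of Ripk1 share 241, both on the opposite strand.

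Serpinb6b, a granzyme A inhibitor, measured 5.63, 9.67 and 8.51 CPM in WT and 3.82, 5.43 and 4.61 CPM in KO at 5 months. Every KO library was lower, with a fall in Serpinb6b of -0.77 ± 0.21 (adjusted p = 0.0216). Without WT replicate 2 or 3 or KO replicate 1 or 3 the adjusted p was 0.0747 to 0.111. Values at 2 months were 4.31, 5.61 and 5.17 CPM in WT and 2.90, 2.74 and 3.20 CPM in KO, also apart, with a similar difference that was not called (-0.77 ± 0.19, adjusted p = 0.0579, and 0.0184 without WT replicate 1). The summed Serpinb6 genes fell at 5 months (-0.71 ± 0.10, adjusted p = 4.36e-04).

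Serpinb1a, an inhibitor of neutrophil elastase and cathepsin G, rose at 5 months. It lies on chromosome 13 at 32842092 to 32851185. It measured 6.69, 5.89 and 5.58 CPM in WT and 8.30, 14.2 and 19.2 CPM in KO. The KO libraries were all higher but spread widely. The log2 fold change was 1.20 ± 0.31 (adjusted p = 0.0383). The adjusted p was 0.0532 with the replicate block, 0.103 with all 12 libraries in the fit, and 0.103 to 0.156 without any 1 WT library or KO replicate 2. Its 2-month values were 4.42, 5.30 and 2.79 CPM in WT and 2.69, 8.66 and 3.80 CPM in KO (adjusted p = 0.816).

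Serpinb9, the inhibitor of granzyme B, stood at 20.7, 27.4 and 25.3 CPM in WT and 21.6, 18.9 and 20.2 CPM in KO at 5 months. The groups overlapped and the difference was not called (-0.27 ± 0.11, adjusted p = 0.104), except without WT replicate 1 (-0.37, adjusted p = 0.0105). At 2 months it was 15.9, 15.1 and 13.6 CPM in WT and 13.7, 12.5 and 18.2 CPM in KO (adjusted p = 0.997). Beside these leukocyte-associated serpins, 1 of 6 tested T and NK cell markers fell at 5 months, and the list summed to 6.99 to 14.9 CPM in WT and 3.03 to 8.92 CPM in KO. Neutrophil markers, 1 of 2 tested lower, summed to 4.15 to 7.99 CPM and 2.65 to 4.67 CPM. Sums of B cell markers went the other way, at 16.8 to 27.4 CPM in WT and 36.2 to 46.1 CPM in KO. Of the 4 B cell markers tested, Ighm was called higher and Ms4a1 and Cd79b lower. Of all genes, 8.90% were called higher and 9.51% lower at 5 months. The part of these markers was not tested. Serpinb8, the remaining clade b member tested, was not called at either time, nor was Serpini1, neuroserpin, of clade i.

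**Figure D5:**
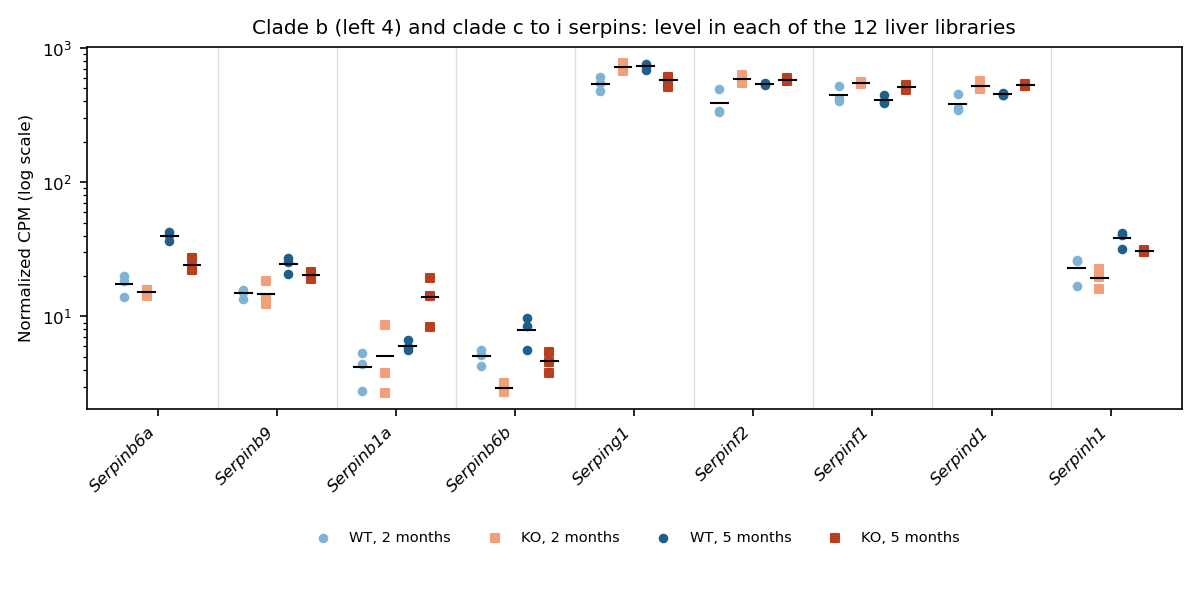
Normalized CPM (log scale) of the clade b serpins (left 4) and of clade c to i serpins in each of the 12 libraries, with circles for WT, squares for KO and a bar for the group mean. At 5 months all KO libraries of Serpinb6a and Serping1 lie below the WT libraries, and all those of Serpinb1a lie above.

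Of the 11 members of clades c to i, 9 were tested at each time. At 2 months edgeR called none, 5 had an unadjusted p below 0.05, all higher in KO, and DESeq2 called 4 higher. Over all 14573 genes tested, 2749 had such a p, 1362 of them higher, and DESeq2 called 3.40% higher. At 5 months 2 rose and 3 fell. Serpine2, protease nexin 1, measured 12.2, 5.30 and 6.24 CPM in WT and 17.4, 11.5 and 14.3 CPM in KO at 2 months. Its groups overlapped by WT replicate 1. It was not called (0.87 ± 0.33, adjusted p = 0.221) but was in 5 of 14 alternatives, among them the block (adjusted p = 0.0104). At 5 months it measured 7.17 to 9.29 CPM in WT and 6.30 to 9.65 CPM in KO (adjusted p = 0.996).

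Serping1 lies on chromosome 2 at 84765387 to 84775444. It stood at 606, 479 and 544 CPM in WT and 714, 674 and 766 CPM in KO at 2 months. It stood at 689, 739 and 756 CPM in WT and 605, 512 and 602 CPM in KO at 5 months. The KO libraries were all above the WT libraries at 2 months and all below them at 5 months. The log2 difference was 0.40 ± 0.10 at 2 months and was not called (adjusted p = 0.0629). It was in 6 of 14 alternatives, among them the block (adjusted p = 0.0489) and the fit without WT replicate 1 (adjusted p = 0.00335). At 5 months Serping1 fell by 0.33 (SE 0.08, adjusted p = 0.0118), with an adjusted p of 0.0558 without WT replicate 2 and 0.0635 without WT replicate 3.

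Among the inhibitors of clotting and fibrinolysis made by hepatocytes, Serpind1 rose at 5 months. It measured 447, 462 and 445 CPM in WT and 525, 521 and 537 CPM in KO, without overlap. The log2 fold change was 0.24 ± 0.06 (adjusted p = 0.0208). The adjusted p was 0.0528 with the replicate block, 0.0634 with library size alone and 0.122 with all 12 libraries in the fit. Without WT replicate 2 or 3 or KO replicate 3 it was 0.0661 to 0.0957. At 2 months it measured 453, 345 and 355 CPM in WT and 495, 513 and 563 CPM in KO (0.44 ± 0.11, adjusted p = 0.0629, and 6.96e-04 without WT replicate 1). Hepatocyte markers were read beside these genes. None of the 10 was called at 2 months by edgeR, with 5 at an unadjusted p below 0.05 and 3 called by DESeq2. Over all 14573 genes tested there, 2749 had such a p and DESeq2 called 6.78%. At 5 months 3 rose, against 8.90% of all genes. The 10 summed to 65170 to 79230 CPM in WT and 82690 to 97350 CPM in KO at 2 months, and to 63810 to 67230 CPM and 82590 to 94240 CPM at 5 months. Alb alone held 41670 to 48870 CPM in WT and 53650 to 63490 CPM in KO at 2 months, and 33830 to 38590 CPM and 52160 to 62610 CPM at 5 months. The sums therefore mostly follow 1 gene. Cyp2e1 averaged lower in KO at both times, at 5448 against 5973 CPM and 3896 against 4485 CPM. The part of these markers in the levels of the secreted serpins was not tested.

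Serpinf2 stood at 495, 333 and 339 CPM in WT and 578, 550 and 626 CPM in KO at 2 months. All KO libraries were higher, but the difference of 0.59 ± 0.15 was not called (adjusted p = 0.0757). It was in 6 of 14 alternatives, among them the block (adjusted p = 0.0299) and the fit without WT replicate 1 (adjusted p = 1.14e-04). At 5 months it stood at 529, 537 and 544 CPM in WT and 565, 583 and 596 CPM in KO (0.13 ± 0.07, adjusted p = 0.216). Serpinc1 stood at 1416 to 1709 CPM in WT and 1576 to 1698 CPM in KO at 2 months, and at 1698 to 1747 CPM and 1748 to 1846 CPM at 5 months (adjusted p = 0.711 and 0.616).

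Serpinf1, pigment epithelium-derived factor, which inhibits no protease, rose at 5 months. It measured 448, 391 and 394 CPM in WT and 484, 530 and 515 CPM in KO, without overlap. The log2 fold change was 0.32 ± 0.07 (adjusted p = 0.00891), with an adjusted p of 0.0594 without WT replicate 2 and 0.0547 without WT replicate 3. Its 2-month values were 519, 404 and 423 CPM in WT and 544, 542 and 556 CPM in KO, also without overlap but not called (0.29 ± 0.10, adjusted p = 0.162, and 0.0028 without WT replicate 1).

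Serpinh1, the collagen chaperone HSP47, stood at 32.0, 40.6 and 42.0 CPM in WT and 30.3, 31.5 and 30.2 CPM in KO at 5 months. The KO libraries lay just below the lowest WT library, and Serpinh1 fell by 0.31 on the log2 scale (SE 0.10, adjusted p = 0.0406). DESeq2 gave 0.0597, all 12 libraries in the fit 0.247, and leaving out any 1 KO library or WT replicate 2 or 3 gave 0.0775 to 0.188. At 2 months the values were 17.0, 26.1 and 26.3 CPM in WT and 16.1, 19.8 and 22.5 CPM in KO (adjusted p = 0.544). Of the 10 stellate cell markers, 4 fell at 5 months, and their sum was 776 to 797 CPM in WT and 656 to 706 CPM in KO. Of the 8 endothelial markers 3 fell, with sums of 326 to 335 CPM and 289 to 305 CPM. Their part was not tested.

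The effect of genotype at 5 months minus that at 2 months was tested in 1 fit of all 12 libraries. Of 31 members, 3 were called, all with a lower value at 5 months, against 0.912% of 15127 genes called lower and 0.661% called higher. They were Serpina1c (-1.20 ± 0.24, adjusted p = 0.0345), Serpina11 (-0.78 ± 0.17, adjusted p = 0.0267) and Serping1 (-0.75 ± 0.13, adjusted p = 0.0112). None was called higher by edgeR or by DESeq2, and 1 member, Serpina7, had an unadjusted p below 0.05 in that direction, as did 1059 of 15127 genes. The call of Serping1 held in all 19 alternatives. That of Serpina11 was lost without KO replicate 1 at 2 months, any 1 WT library at 5 months or KO replicate 2 or 3 at 5 months (adjusted p = 0.0536 to 0.0698). That of Serpina1c was lost without a filter (0.0521) and without any 1 KO library at 2 months, any 1 WT library or KO replicate 2 or 3 at 5 months (0.0502 to 0.0926). The members' median difference was -0.35, against -0.0044 over all genes, and 6 of 31 were above 0. Without WT replicate 1 at 2 months, 8 members were called, all lower, where 1.88% of all genes were called lower.

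Over time, 13 of 30 members rose and 1 fell from 2 to 5 months in WT, where 23.8% of all 14491 genes were called higher and 22.7% lower. In KO, 9 of 29 rose and 7 fell, where 22.7% of 14478 genes were called higher and 22.2% lower. Serpina4-ps1, counted among the 7 (log2 -6.08, adjusted p = 0.0205, edgeR), passed the filter through its 2-month KO level alone. The tables of the times may have been made apart, so time and batch cannot be told apart, and these comparisons share libraries with those of genotype above. In both genotypes Serpina7 rose (1.00 in WT, adjusted p = 2.02e-05, and 1.27 in KO, adjusted p = 2.7e-07), as did Serpina12 (0.89, adjusted p = 3.08e-05, and 0.59, adjusted p = 0.00683) and Serpina10 (0.76, adjusted p = 8.37e-05, and 0.41, adjusted p = 4.89e-04). Serpina6 fell in both, by 0.61 in WT (adjusted p = 0.00289) and by 0.52 in KO (adjusted p = 0.00111).

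Serpinb6a (1.18 in WT and 0.66 in KO), Serpinb6b (0.66 and 0.64), Serpinb9 (0.72 and 0.44) and Serpinh1 (0.72 and 0.65) also rose in both genotypes, with adjusted p at most 0.0267. The calls of Serpinb6b were made in 9 of 14 alternatives in WT and 11 in KO, and that of Serpinb9 in KO in 10. Serpina3n rose by 0.40 in WT (adjusted p = 0.00877) and by 0.16 in KO (adjusted p = 0.0381), but the call in KO was made in 2 of 14 alternatives, with adjusted p up to 0.146. Serpinf2 rose in WT (0.46, adjusted p = 0.0264), as did Serpina11 (0.60, adjusted p = 0.00319), and Serpina3m rose in KO (0.26, adjusted p = 0.0213). The calls of Serpinf2 and Serpina3m were made in 9 of 14 alternatives each, with adjusted p up to 0.0943 and 0.0787. Serping1 rose in WT (0.42, adjusted p = 0.00683) and fell in KO, by 0.33 (adjusted p = 0.00551). Serpina1c fell by 1.07 in KO (adjusted p = 2.77e-05) and measured 0.13 in WT (adjusted p = 0.602). Serpina3f rose by 0.82 in WT (adjusted p = 0.0033) and Serpina3g by 1.28 (adjusted p = 0.00487), and in KO they measured -0.33 (adjusted p = 0.39) and 0.33 (adjusted p = 0.203). Every sum of macrophage markers at 5 months was also above every sum at 2 months within a genotype, by the values given above. The single markers differed by genotype. In WT all 9 were called higher, against 23.8% of all genes. In KO 4 of the 9 were called higher and Csf1r lower, against 22.7% and 22.2% of all genes. In KO, Serpina1d fell by 0.41 (adjusted p = 5.54e-04), Serpina1e by 1.58 (adjusted p = 0.0259) and Serpine2 by 0.77 (adjusted p = 0.0114), and the summed Serpina1 genes fell by 0.28 (adjusted p = 0.00755). The call of Serpina1e was made in 7 of 14 alternatives, with adjusted p up to 0.0903.

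The proteases, cofactors and other partners of the serpins were read from 10 lists. At 2 months, 7 lists with 55 tested genes had no call by edgeR, with 21 genes at an unadjusted p below 0.05 and 8 called by DESeq2. Over all 14573 genes tested, 2749 had such a p and DESeq2 called 6.78%. Among the others, Hgfac, the activator of hepatocyte growth factor, rose by 0.45 ± 0.08 (adjusted p = 0.0196) as 1 of 10 clotting and kinin proteases, and Mbl2, a mannose-binding lectin, by 0.33 ± 0.07 (adjusted p = 0.0303) as 1 of 10 tested genes of the complement list. Of 16 acute phase genes 2 rose, led by Itih3 (0.47 ± 0.11, adjusted p = 0.0445), and Hp, haptoglobin, fell by 0.41 (SE 0.09, adjusted p = 0.0469).

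The counts of the lists at 5 months stand beside 8.90% of all genes called higher and 9.51% lower, and were not tested against them. Of the 10 clotting and kinin proteases 3 rose, led by Hgfac (0.64 ± 0.07, adjusted p = 3.64e-05), as did 4 of 10 hepatocyte membrane and secreted serine proteases and their regulators. Of the 12 cathepsins and other lysosomal proteases 5 fell, with Ctss, cathepsin S of antigen-presenting cells, falling by 1.00 (SE 0.13, adjusted p = 9.57e-04). Plau, urokinase, which activates plasminogen, fell by 1.13 (SE 0.23, adjusted p = 0.00542) as 1 of 4 genes of the plasminogen list. Gzmb, granzyme B, the target of Serpinb9, fell by 0.90 (SE 0.29, adjusted p = 0.0489) as 1 of 3 tested leukocyte proteases. Its level was 2.35 to 2.62 CPM in WT and 0.82 to 1.79 CPM in KO, and DESeq2 called none of the 3.

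Of the 16 acute phase genes 10 fell at 5 months, with the largest fall in Orm2 (by 1.72, SE 0.20, adjusted p = 0.00282), and the list's median was -0.56. Of the 12 collagen genes and chaperones other than Serpinh1, 5 fell, with the largest fall in Col1a1 (by 0.95, SE 0.23, adjusted p = 0.0499). In the complement list 1 of 11 tested genes rose and 2 fell. Masp1, a protease of the lectin pathway, rose by 0.19 ± 0.06 (adjusted p = 0.0408). Cfd, adipsin, which is also an adipocyte marker, was called lower and measured 6.16 to 7.11 CPM in WT and 0 in every KO library. It therefore passed the filter on low counts through its WT level alone. Cfd was also 0 in every KO library at 2 months, where DESeq2 called it and edgeR did not. Of the 8 cofactors and receptors 1 rose, and among carriers Alb, albumin, rose (0.64 ± 0.11, adjusted p = 0.00121) as 1 of 8.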

How the data were processed

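RNA was taken from 12 mouse livers labelled by genotype and months on diet, 3 libraries per group. The labels number the libraries of a group but name no animal, so p-values measure the spread between these libraries. The authors deposited 1 table of read counts per gene for each library, as whole numbers without normalization. The submitters' processing notes name HISAT2 and the mm10 build, whereas the study's methods name STAR. The counter, its use of strand and its treatment of reads that match several genes were not given in the sources used here. The tables held gene names damaged by a spreadsheet, 27 of which were restored.

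Genes with low counts were removed by filterByExpr within each comparison, libraries were scaled by TMM, and KO was compared with WT at each time, and 5 with 2 months within each genotype, by the robust quasi-likelihood test of edgeR 4.0.16 (R 4.3.3, limma 3.58.1), two-sided, with Benjamini-Hochberg adjustment over all genes tested. A call is an adjusted p below 0.05, and SE is the log2 fold change divided by the root of its F statistic. The difference between the times was tested as an interaction over all 12 libraries. Normalized CPM came from TMM over all libraries and were used for description. The script was tested on simulated data. Deviations from the group means were correlated between KO and WT libraries of the same number at 2 months (r = 0.218, 0.323 and 0.14). At 5 months they were not (r = -0.0806, -0.0586 and -0.172). Such correlations do not establish pairing. At 2 months KO replicate 3 with WT replicate 1 gave 0.113. Same numbers at different times reached 0.239 in WT and 0.216 in KO. The labels state no pairing, so the replicate block was used only as an alternative.

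The members and lists were chosen with earlier results of these data known. Named with values were members called between genotypes at either time or in the difference between times, the 3 of highest RPKM in each clade group, the serpins named by the study and Serpina4-ps1. From each partner list the called gene with the largest fold in each direction was named. Some genes that met these rules are not reported here. Serpina1e, Serpina6, Serpina10, Serpine2 and Serpinc1 were added after their values were seen. Exact windows of 100 bases and loop sequences came from GENCODE M21 transcripts, whose gene coordinates were equal to those of the tables for all 62 members. Loop sequences are given as coding bases. Alternatives were DESeq2 1.42.0, its size factors, library size alone, other filters, an unadjusted p below 0.05 with a change of at least 1.3-fold, all 12 libraries in 1 fit, the replicate block, summed paralogs, and each library left out in turn.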

Additional observations from a re-analysis of the deposited data

Results flagged for a closer look

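In 3 members the effect of genotype differed between 2 and 5 months by the interaction test. For Serpina1c the effect at 5 months minus that at 2 months was -1.20 on the log2 scale, for Serpina11 it was -0.78 and for Serping1 it was -0.75, all lower at 5 months (edgeR, adjusted p = 0.0345, 0.0267 and 0.0112). Serpina1c shares 58.5% of its windows of 100 bases with other genes. Of its 1361 exonic bases, 429 are shared with the antisense gene B430119L08Rik on the opposite strand. Serpina11 shares 669 exonic bases with Gm28577. The values of both serpins therefore carry the uncertainty of how shared reads were counted. Time cannot be told apart from any batch of the 2 times in these levels, but each effect of genotype was taken within a time.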

How the results depend on the processing

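Of the members named with values, calls were the same in 577 recomputed results, lost in 118 and of opposite sign in 5, and results not called were the same in 307, passed the threshold in 39 and changed sign in 15. At 2 months the members called higher (4) numbered 10 under the unadjusted threshold, 11 with DESeq2, 12 without a filter and 8 with all 12 libraries in 1 fit, where 4.55%, 3.40%, 3.08% and 3.69% of all genes were called higher. Those called lower (1) numbered 2 under each of these and with library size alone, which called 3 higher. With the replicate block, members called higher and lower at 2 months were 8 and 2. At 5 months the members called higher (6) numbered 3 under the unadjusted threshold with a 1.3-fold change and 3 with all 12 libraries. From 2 to 5 months in WT, DESeq2 called 2 lower. In the difference between times (3), the unadjusted threshold gave 8 and no filter 7, where 10.3% and 2.76% of all genes were called. At 5 months the block gave 5 higher and 9 lower. It gave 15 and 1 over time in WT, 9 and 8 in KO, and 3 in the difference.

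Leaving out each library in turn gave 1 to 13 members higher and 1 to 2 lower at 2 months, 2 to 6 and 6 to 11 at 5 months, 11 to 19 and 1 to 2 over time in WT, 5 to 9 and 5 to 9 in KO, and 1 to 8 in the difference between times. The value of 13 came without WT replicate 1 at 2 months, and 1 came without WT replicate 3, KO replicate 1 or KO replicate 3. The value of 5 higher in KO over time came without KO replicate 1 at 2 months. In the difference, 8 came without WT replicate 1 at 2 months, and 1 came without KO replicate 1 at 2 months and without WT replicate 2, WT replicate 3, KO replicate 2 or KO replicate 3 at 5 months.

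Signs turned as follows, on the log2 scale. Summed Serpina3 paralogs gave 0.61 at 2 months in place of Serpina3f and Serpina3g, 0.011 at 5 months in place of Serpina3f, Serpina3g and Serpina3k, and -0.24 over time in KO in place of Serpina3m and Serpina3n. Summed Serpina1 paralogs gave -0.019 at 5 months in place of Serpina1a and Serpina1d. These sums follow the most abundant paralog. At 2 months Serpinb1a was -0.35 without KO replicate 2 and Serpina3f 0.083 and 0.11 without KO replicates 1 and 2, in ranges of -0.35 to 0.56 and -0.54 to 0.11 over the libraries left out. Serpinb9, near 0, was -0.078 with library size alone, -0.0004 with 10 counts in every library, -0.014 with the block, -0.058 without WT replicate 3 and -0.18 without KO replicate 3, in a range of -0.18 to 0.11. At 5 months Serpina3k was 0.11 without WT replicate 1 and 0.019 and 0.022 without KO replicates 2 and 3, in a range of -0.32 to 0.11. The cause was not tested. With 3 libraries per group, members with few counts, above all clade b and Serpina4-ps1, were the least precisely measured.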
